A study of Mus musculus with 6 samples.

Results

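Genes that copy DNA and divide cells were followed in cultured mouse blastocysts: 34 genes chosen by name from textbook cell cycle and DNA replication sets, of which 33 had a feature on the array, among 22485 named genes in all. Each gene was read by its brightest feature, the one with the highest mean over all arrays. The set holds 17 measured genes of mitosis, 13 of DNA replication and 3 cyclins of the G1 phase, and Ccnb1 was not analysed here. All 33 lay above the filter that left out the dimmest 25% of features. The samples were whole blastocysts of the B6C3F1 hybrid strain, flushed on day 2 of pregnancy from superovulated females of 6 to 8 weeks and cultured for 72 hours. In 3 samples the medium held 400 nM of a mimic of the microRNA miR-30d, and in 3 samples it held 400 nM of a scrambled oligonucleotide with the dye Alexa 488. Each condition used 30 embryos, 50 ng of total RNA per sample were labelled with Cy3, and each sample had its own array. Both groups carried a synthetic RNA, the dye is named for the scramble alone and no untreated embryos were arrayed, so effects of miR-30d and of the dye cannot be told apart here, and a response that both groups share would not show.

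As background, a dividing cell loads the MCM helicase onto replication origins in G1, fires those origins in S phase, and then separates the copies in mitosis under the cyclin B kinase, the Aurora and Polo-like kinases and the spindle checkpoint. The genes of S phase are largely switched on by E2F factors. Those of mitosis are switched on later, by MuvB complexes through the cell cycle genes homology region (CHR), together with NF-Y. Cells of the inner cell mass divide rapidly, whereas mural trophectoderm leaves the mitotic cycle and becomes giant cells, which go on copying DNA without dividing. For that reason replication and mitosis genes can in principle part company in a blastocyst, and they were set side by side here. In whole embryos fewer cells of a type and less RNA per cell cannot be told apart.

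None of the 33 genes passed the test between mimic and scramble. At an adjusted p under 0.05 in limma, 0 of 33 were called, against 0.0% of the 17399 genes tested, and the smallest adjusted p of a member was 0.972. At an unadjusted p under 0.05 there were 0 of 33, against 3.17% of all genes. The values of the groups did not overlap in 0 of 33, against 9.7% of all genes. The mean was higher with the mimic in 13 genes and lower in 20, with a median log2 difference (mimic minus scramble) of -0.028, and over all genes tested 53.2% were higher, 46.8% were lower and the median was 0.02. The median size of the difference, sign aside, was 0.084 for the members and 0.18 for all genes tested. The members were also brighter, with a median log2 signal of 11.01 against 7.94 over all genes tested.

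The intervals say how large a change these arrays would still allow, in a fit that treats the groups as unpaired. The 95% interval of the difference lay inside a 2-fold change in either direction for 30 of the 33 genes, against 72.8% of all genes tested. It lay inside 0.5 on the log2 scale for 16 of 33, against 15.1% of all genes. The median SE was 0.19 for the members and 0.25 for all genes tested. Since the members were the brighter genes, these shares do not compare genes of equal signal. The exceptions to the 2-fold bound were Bub1b (-1.02 to 1.32), Cdc6 (-0.54 to 1.39) and Ccnd1 (-0.77 to 1.09). These are the 3 members with the widest intervals, and in each of them scramble replicate 1 was the lowest of the 6 arrays.

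**Figure D1:**
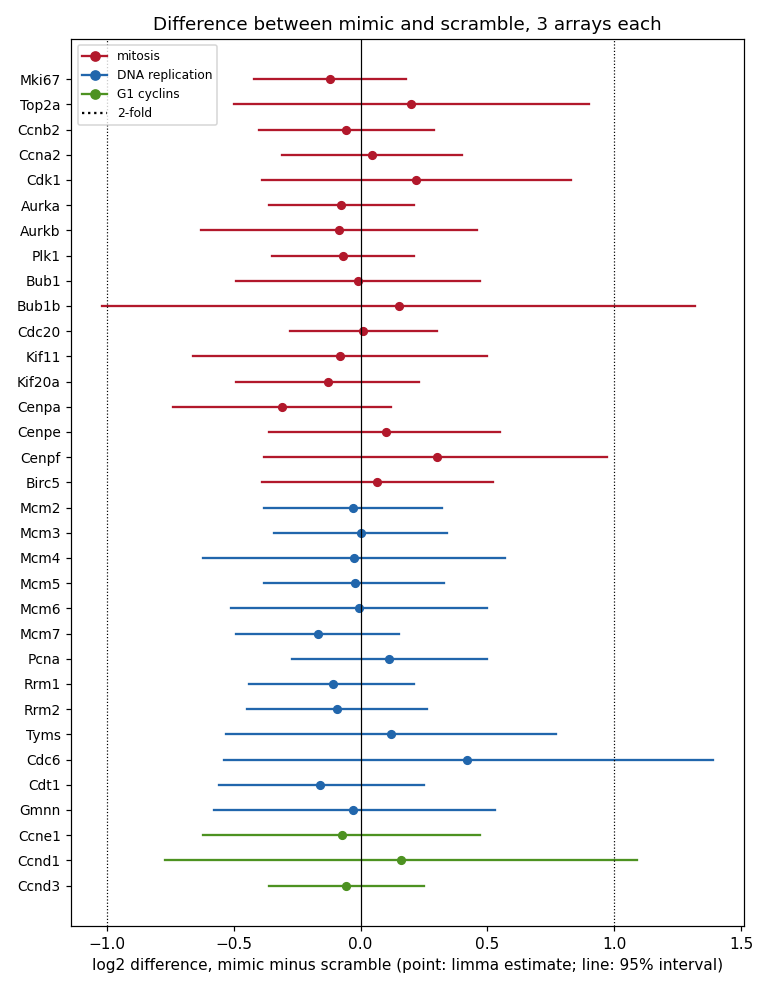
Log2 difference between mimic and scramble (x axis, 3 arrays each) for each of the 33 genes (y axis), with the limma estimate as a point and its 95% interval as a line, coloured by role. Every interval crosses 0, and only those of Bub1b, Cdc6 and Ccnd1 reach past a 2-fold change, marked by dotted lines.

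The medians of the replication and mitosis genes lay close together. Of 17 mitosis genes 8 had a higher and 9 a lower mean with the mimic, and their log2 differences had a median of -0.011 and a range from -0.31 to 0.30. Of 13 replication genes 4 had a higher and 9 a lower mean, and the median was -0.028 with a range from -0.17 to 0.42. The replication median minus the mitosis median was -0.018. A related gap, between the class medians of each array's deviations from the gene means, varied by 0.092 (SD) between arrays of a group. That gap is computed otherwise than the -0.018 and need not share its sign. Taken array by array as deviations from each gene's own mean, the replication median stood above the mitosis median by 0.033 and 0.054 on scramble replicates 2 and 3 and by 0.0016 and 0.07 on mimic replicates 2 and 3. On the arrays numbered 1 it stood below it, at -0.16 with scramble and -0.023 with the mimic.

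The arrays numbered 1 stood apart from the others. Scramble replicate 1 correlated with the other arrays at 0.918 to 0.927 over all features and mimic replicate 1 at 0.927 to 0.947, while the closest pair among the other arrays reached 0.988. Over 220 genes with at least 10 features each, the median SD between features of a gene on the same array was 0.53 on scramble replicate 1 and 0.35 on mimic replicate 1, against 0.16 to 0.24 on the other arrays. As checks of the tissue, the trophectoderm genes Krt8 (14.48 to 15.12) and Cdx2 (12.14 to 13.73) and the inner cell mass gene Zfp42 (11.31 to 11.77) read far above the filter level of 7.16 on every array. Other inner cell mass genes lay closer to it, with Sox2 at 7.24 to 8.53 and Tdgf1 at 7.67 to 8.99. The sperm, oviduct and blood lists had no tested marker with a mean above 7.41, whereas of the cumulus list Foxl2 read 12.17 to 13.41 and Has2 and Cyp11a1 lay near the filter. The part of other cells in the values was not tested.

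The promoters of mitosis and replication genes differed in the elements they held, so sequences are shown here for the gene with the highest and the one with the lowest difference of each class. They are RefSeq windows of build GRCm38.p6, from 250 bases before to 50 bases after the annotated start, 5′ to 3′ on the strand of the gene, with capitals on the matches to 3 elements searched on both strands. The elements are the CHR (TTTGAA or TTCGAA), the NF-Y box (CCAAT), and an E2F site (TTTCCCGC, TTTGGCGC, TTTCGCGC or TTTGCCGC). Cenpf lies on the minus strand at chr1:189688037-189688336, Cenpa on the plus strand at chr5:30666636-30666935, Cdc6 on the plus strand at chr11:98907901-98908200 and Mcm7 on the minus strand at chr5:138171834-138172133.
Cenpf: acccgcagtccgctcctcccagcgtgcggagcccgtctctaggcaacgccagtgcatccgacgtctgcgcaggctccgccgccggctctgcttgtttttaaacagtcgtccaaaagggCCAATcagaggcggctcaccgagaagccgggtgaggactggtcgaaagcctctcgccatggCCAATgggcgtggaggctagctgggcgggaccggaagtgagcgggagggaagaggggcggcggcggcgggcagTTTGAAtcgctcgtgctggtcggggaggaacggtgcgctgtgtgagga
Cenpa: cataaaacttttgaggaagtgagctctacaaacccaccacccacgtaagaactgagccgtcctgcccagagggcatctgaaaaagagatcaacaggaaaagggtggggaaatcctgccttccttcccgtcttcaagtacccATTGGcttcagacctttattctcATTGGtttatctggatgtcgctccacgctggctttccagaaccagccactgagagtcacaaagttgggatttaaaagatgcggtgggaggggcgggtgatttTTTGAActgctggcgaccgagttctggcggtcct
Cdc6: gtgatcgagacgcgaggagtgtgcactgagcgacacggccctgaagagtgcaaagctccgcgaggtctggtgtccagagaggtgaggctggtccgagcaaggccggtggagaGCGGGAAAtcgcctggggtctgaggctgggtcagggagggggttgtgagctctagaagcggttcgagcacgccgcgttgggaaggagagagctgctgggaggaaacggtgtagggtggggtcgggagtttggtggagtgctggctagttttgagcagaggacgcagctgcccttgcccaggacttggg
Mcm7: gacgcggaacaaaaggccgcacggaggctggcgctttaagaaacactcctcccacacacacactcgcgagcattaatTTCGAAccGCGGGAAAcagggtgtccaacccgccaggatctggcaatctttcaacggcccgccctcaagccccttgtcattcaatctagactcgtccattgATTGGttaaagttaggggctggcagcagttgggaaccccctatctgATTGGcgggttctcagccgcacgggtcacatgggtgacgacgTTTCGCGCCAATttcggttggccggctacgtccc

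Both centromere genes show a pair of NF-Y boxes upstream and a CHR just past the start, at position 3 in Cenpf and 17 in Cenpa (the first transcribed base is 1). Cdc6 has a single E2F match, at position -138. Mcm7 holds E2F matches at -165 and 17, the second of which overlaps an NF-Y box, and it is also among the few replication genes with a CHR match. Over the set, 12 of the 15 mitosis promoters in the RefSeq table (80.0%) held a CHR match, against 2 of 11 replication promoters (18.2%) and 19.4% of all 27025 promoters of the same length. For the E2F site the order turned round, with 1 of 15 mitosis promoters (6.67%), 6 of 11 replication promoters (54.5%) and 2.32% of all. The NF-Y box was in 14 of 15 mitosis, 8 of 11 replication and 37.9% of all promoters. The mitosis count includes Ccnb1. Ccna2, Aurkb, Kif20a, Mcm4, Gmnn and Ccnd1 had no promoter under their symbol in the RefSeq table and were not searched. A match is a description of the letters in the window.

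**Figure D2:**
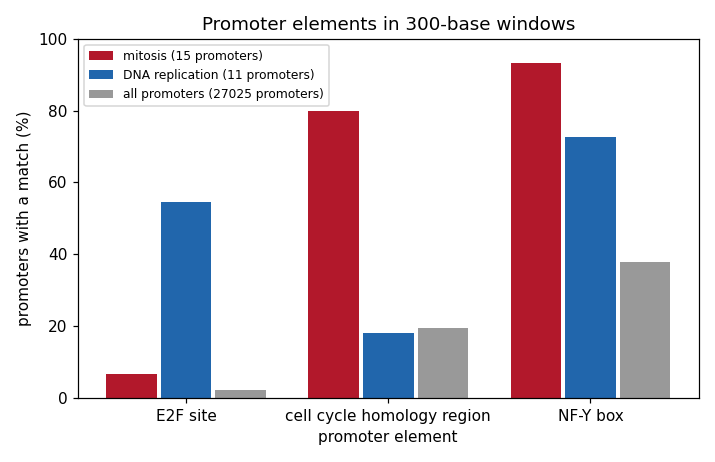
Share of promoters (y axis, percent) that hold a match to each of 3 elements (x axis) within 300 bases, for 15 mitosis genes, 11 replication genes and all 27025 promoters. The cell cycle homology region was matched in 80.0% of mitosis promoters and the E2F site in 54.5% of replication promoters.

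The cyclins and kinase that drive mitosis had overlapping values in the groups. Cdk1, the kinase that drives entry into mitosis, read 8.37, 9.09 and 9.06 with scramble (replicates 1, 2 and 3, log2 signal) and 9.32, 8.99 and 8.86 with the mimic. The low reading of scramble replicate 1 and the high one of mimic replicate 1 carried its log2 difference of 0.22 (SE 0.27, limma adjusted p = 0.972), which was -0.15 without both arrays. The other features of Cdk1 were dim, with means of 7.20 and 7.09, and had differences of 0.25 and -0.24. Its partner Ccnb2, a B-type cyclin, read 11.65, 11.81 and 11.31 with scramble and 11.50, 11.61 and 11.49 with the mimic, so the mimic values lay within the scramble range. Ccna2, the cyclin of S phase and early mitosis, read 9.99, 10.37 and 10.09 against 10.28, 10.26 and 10.04, a difference of 0.044 (SE 0.16). The proliferation marker Mki67, whose protein coats mitotic chromosomes, read 11.17, 11.15 and 11.25 against 10.91, 11.25 and 11.05. Its second feature had a log2 difference of -0.036, close to the -0.12 of the first. Top2a, the topoisomerase that untangles sister DNA, read 8.91, 9.77 and 9.64 with scramble and 9.12, 10.09 and 9.71 with the mimic. In Top2a the arrays numbered 1 were the lowest of both groups, and within each numbered pair the mimic was higher, by 0.21, 0.33 and 0.071.

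The mitotic kinases and their partners also overlapped between the groups. Plk1, the Polo-like kinase, read 11.07, 11.10 and 10.98 with scramble and 11.03, 11.07 and 10.85 with the mimic, with the smallest pooled SD of the set (0.092). Aurka, the Aurora kinase of the spindle poles, read 11.58, 11.73 and 11.59 against 11.41, 11.69 and 11.57. For these 2 kinases the interval of the difference ran from -0.35 to 0.21 and from -0.36 to 0.21. Aurkb, the Aurora kinase of the chromosomal passenger complex, was dim at 6.88 to 7.65, around the filter level. Birc5, or survivin, a partner of Aurkb in that complex, was bright and read 12.52, 13.22 and 12.74 against 12.69, 13.09 and 12.89. Its 3 features had differences of 0.063, 0.028 and -0.23. Cdc20, which activates the ligase that ends mitosis, read 12.73, 12.54 and 12.74 with scramble and 12.78, 12.66 and 12.60 with the mimic, a difference of 0.0077 (SE 0.13).

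Bub1, a checkpoint kinase, had 10 features and so shows the error of a single reading. Its brightest feature read 9.05, 9.28 and 9.21 with scramble and 8.86, 9.29 and 9.36 with the mimic, a log2 difference of -0.011, while the mean of all its features gave 0.21. On scramble replicate 1 the 10 features ran from 7.11 to 9.61 (SD 0.83), and on scramble replicate 2 from 8.73 to 9.31 (SD 0.22). Taken by the median of its features on each array, Bub1 read 8.34, 9.05 and 8.94 with scramble and 8.90, 9.03 and 9.16 with the mimic. That difference of 0.25 became 0.099 without the arrays numbered 1. Bub1b, or BubR1, another checkpoint protein, read 7.37, 8.88 and 9.02 with scramble and 7.78, 8.95 and 9.00 with the mimic. The arrays numbered 1 lay more than a log2 unit below the others in both groups, and without them the difference of Bub1b was 0.024.

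Of the motors and centromere genes, Cenpa had the lowest and Cenpf the highest log2 difference of the mitosis class, and neither passed the test. Cenpa, the histone H3 variant that marks centromeres, read 10.08, 10.30 and 10.51 with scramble and 9.67, 10.16 and 10.15 with the mimic. It was lower in all 3 numbered pairs, with differences of -0.41, -0.15 and -0.36, and the groups overlapped, since 2 mimic arrays exceeded scramble replicate 1. The log2 difference was -0.31 (SE 0.19, unadjusted p = 0.139 in limma), and with the replicate number as a block the unadjusted p was 0.0367 and the adjusted p 0.663. This was the only member under an unadjusted p of 0.05 with the block, 1 of 33 against 7.24% of all genes, and 0 of 33 members were called with the block against 0.00575% of all genes. Without mimic replicate 1 the difference of Cenpa was -0.15.

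Cenpf, a kinetochore protein of late G2 and mitosis, read 6.68, 7.20 and 7.58 with scramble and 7.87, 7.39 and 7.08 with the mimic, all near the filter level of 7.16. Its difference of 0.30 (SE 0.29) became -0.15 without both arrays numbered 1. The kinetochore motor gene Cenpe read 11.30, 11.59 and 11.01 against 11.14, 11.74 and 11.31, with fully overlapping groups. Kif11, the motor that pushes spindle poles apart, read 8.59, 8.52 and 8.49 against 8.67, 8.49 and 8.21, and Kif20a, a motor of cytokinesis, had 10.05, 10.21 and 10.08 against 9.76, 10.01 and 10.18. Their log2 differences of -0.081 and -0.13 were smaller than their standard errors of 0.25 and 0.16.

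**Figure D3:**
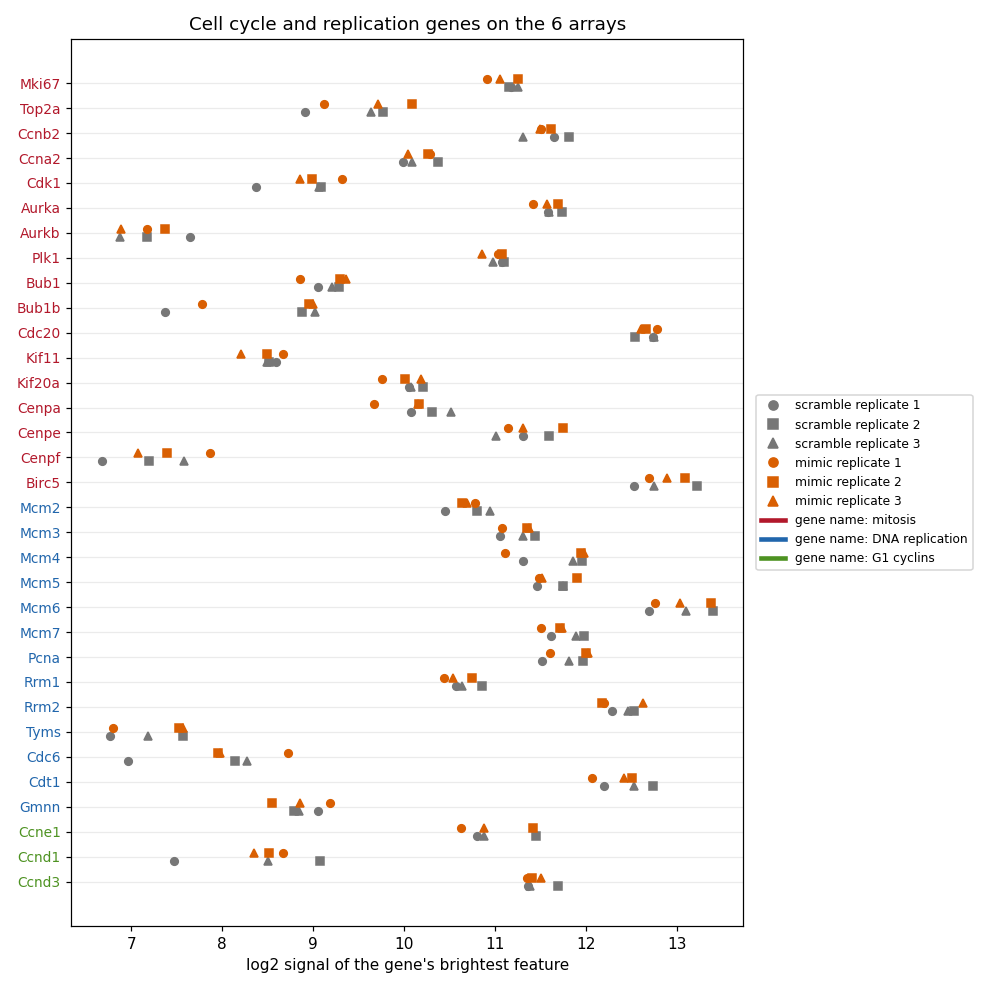
Log2 signal (x axis) of each of the 33 genes (y axis, names coloured by role) on the 6 arrays, with scramble in grey and mimic in orange and a symbol for each replicate number. The groups overlap in every gene, and in Top2a, Bub1b and Mcm4 the circles of both arrays numbered 1 lie to the left of the other arrays.

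Among replication genes, the 6 subunits of the MCM helicase, which unwinds DNA ahead of the fork, had differences from -0.17 to 0.0002 by their brightest features. The second feature of Mcm3 had a difference of 0.24 (SE 0.17). Mcm2 read 10.45, 10.80 and 10.94 with scramble and 10.78, 10.63 and 10.69 with the mimic. Mcm3 read 11.05, 11.44 and 11.30 against 11.07, 11.35 and 11.37, and Mcm4 read 11.31, 11.95 and 11.86 against 11.11, 11.94 and 11.98. These 3 subunits gave the same order of arrays only in part, since Mcm2 was not low on mimic replicate 1. Mcm5 read 11.46, 11.74 and 11.75 against 11.48, 11.90 and 11.51, and Mcm6 read 12.69, 13.39 and 13.10 against 12.75, 13.37 and 13.03. In Mcm6 the same-numbered arrays of the groups differed by 0.062, -0.022 and -0.065, far less than the numbers differed among themselves.

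Mcm7 had the lowest difference of the class. It read 11.61, 11.97 and 11.89 with scramble and 11.50, 11.71 and 11.73 with the mimic, with differences of -0.10, -0.26 and -0.16 in the numbered pairs. The groups overlapped, the log2 difference was -0.17 (SE 0.14, unadjusted p = 0.247), and it was -0.21 without the arrays numbered 1. Mcm7, Rrm1 and Cdt1 were the 3 of 13 replication genes lower with the mimic in all numbered pairs, a pattern seen in 13.8% of all genes tested. In the mitosis class it held for 3 of 17, which were Aurka, Plk1 and Cenpa. The opposite, a higher mimic value in every pair, held for Top2a and Pcna, 2 of 33 against 19.1% of all genes.

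The clamp and the nucleotide enzymes varied in both directions. Pcna, the sliding clamp of the polymerases, read 11.51, 11.96 and 11.81 with scramble and 11.60, 12.00 and 12.02 with the mimic, higher in each numbered pair by 0.10, 0.037 and 0.21. Rrm1 and Rrm2 encode the subunits of ribonucleotide reductase, which makes deoxynucleotides. Rrm1 read 10.57, 10.85 and 10.63 against 10.44, 10.74 and 10.54, and Rrm2 read 12.28, 12.53 and 12.46 against 12.20, 12.17 and 12.62. Their differences of -0.11 (SE 0.14) and -0.094 (SE 0.16) were both below their error. Tyms, the thymidylate synthase gene, was dim at 6.77, 7.57 and 7.19 against 6.80, 7.53 and 7.57.

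The licensing genes set how often an origin fires. Cdt1, which loads MCM, read 12.20, 12.73 and 12.53 with scramble and 12.06, 12.50 and 12.42 with the mimic, a difference of -0.16 (SE 0.18). Gmnn, or geminin, the inhibitor of Cdt1, read 9.05, 8.79 and 8.84 against 9.19, 8.55 and 8.85, a difference of -0.03 (SE 0.24). Inhibitor and target each differed between the groups by less than the standard error. Cdc6, the other MCM loader, read 6.97, 8.14 and 8.27 with scramble and 8.72, 7.95 and 7.98 with the mimic. Its difference of 0.42 (SE 0.42), the highest of the set, came from the arrays numbered 1, where the mimic was 1.75 higher, while in the other numbered pairs it was -0.19 and -0.29. Without both arrays numbered 1 the difference of Cdc6 was -0.24, and without scramble replicate 1 alone it was 0.012. The second feature of Cdc6 read 7.21 and 7.92 on the arrays numbered 1 and had a difference of 0.29.

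The G1 cyclins link growth signals to the start of S phase. Ccne1, cyclin E1, read 10.80, 11.45 and 10.88 with scramble and 10.62, 11.42 and 10.88 with the mimic, so that same-numbered arrays lay within 0.18 of each other. Ccnd3, a D-type cyclin, read 11.36, 11.69 and 11.38 against 11.35, 11.40 and 11.50. Its log2 difference was -0.059, and its second feature had -0.28 (SE 0.20). Ccnd1, cyclin D1, read 7.47, 9.08 and 8.50 against 8.67, 8.51 and 8.35, with the lowest value again on scramble replicate 1. The log2 difference of Ccnd1 was 0.16 (SE 0.41) over all arrays, -0.28 without scramble replicate 1 and -0.36 without both arrays numbered 1.

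The arrays numbered 1, singled out above over all features, also read low for many of these genes. Scramble replicate 1 was the lowest of its group in 12 of 13 replication genes, against 47.2% of all genes tested, and mimic replicate 1 in 9 of 13, against 46.9%. In 9 of 13 replication genes the array numbered 1 was the lowest of its group in both scramble and mimic, and in 7 of 17 mitosis genes, against 29.4% of all genes tested. On average over both groups the array numbered 1 differed from the mean of its 2 group mates by a median of -0.27 in replication genes, -0.15 in mitosis genes and -0.054 over all genes tested. The treatment difference, sign aside, had a median of 0.094 in replication genes and 0.084 in mitosis genes. The 2 classes lay closer together among the further replication and mitosis genes treated below. There the array numbered 1 was the lowest in both groups in 26 of 42 and 24 of 46 genes. The median gaps to the group mates were -0.32 and -0.26. The same-numbered arrays also moved together over all genes, and whether these gaps reflect embryos or array quality was not tested.

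**Figure D4:**
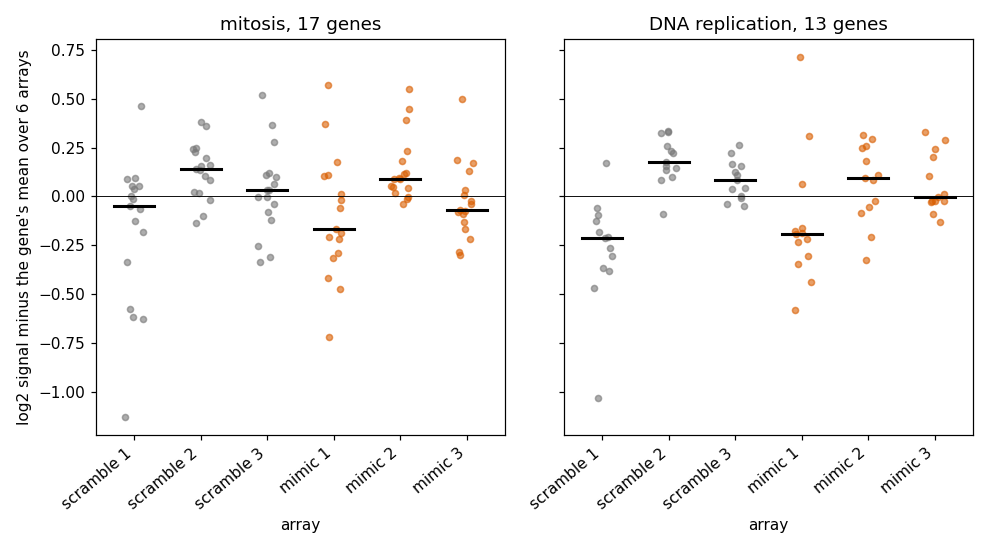
Log2 signal minus the gene's own mean over the 6 arrays (y axis) by array (x axis), for 17 mitosis genes (left) and 13 replication genes (right), each point a gene and each bar the median. The replication medians are lowest on scramble replicate 1 (-0.21) and mimic replicate 1 (-0.19).

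Without both arrays numbered 1 there was still no called member. Of 33 genes 9 were then higher and 24 lower with the mimic, where 45.0% of all genes were lower, and 0 of 33 had an unadjusted p under 0.05 against 5.75% of all genes. The replication median was -0.10 and the mitosis median -0.027, with 10 of 13 and 11 of 17 genes lower. The sign of the difference changed in 10 of 33 genes, against 25.8% of all genes tested, and Cdc6, Cenpf, Cdk1 and Ccnd1 changed from higher to lower. These values rest on 2 arrays a group.

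**Figure D5:**
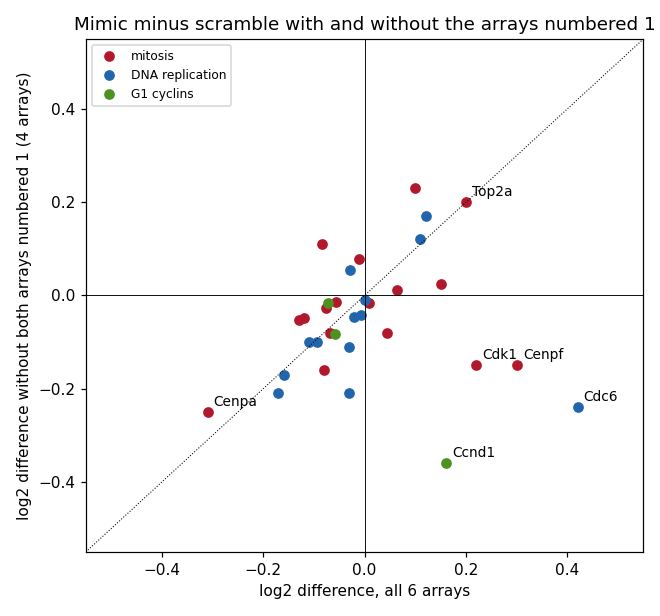
Log2 difference between mimic and scramble without both arrays numbered 1 (y axis, 4 arrays) against the difference over all 6 arrays (x axis), each point one of the 33 genes, coloured by role, with the line of equality dotted. Cdc6, Cenpf, Cdk1 and Ccnd1 lie at the lower right, positive with all arrays and negative without those numbered 1.

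In the wider machinery 0 genes of any list were called at an adjusted p under 0.05 (0.0% of all genes). Among 42 further replication genes tested the mimic mean was above that of scramble in 23 and below it in 19, and their median log2 difference was 0.011. Without the arrays numbered 1 the balance turned, to 17 above and 25 below with a median of -0.025. On the lower side 2 of them had an unadjusted p under 0.05, against 1.51% of all genes, and none did on the higher side. Gins1, a subunit of the GINS part of the replicative helicase, read 9.83, 10.03 and 9.84 with scramble and 9.35, 9.62 and 9.56 with the mimic. The groups of Gins1 did not overlap, and its difference was -0.39 (SE 0.16, limma unadjusted p = 0.0385, adjusted p = 0.972) and -0.35 without the arrays numbered 1. Mcm10, an initiation factor that binds the helicase, had -0.33 (SE 0.14), and it was -0.22 without the arrays numbered 1. Tk1, the thymidine kinase gene, read 11.13, 11.12 and 11.05 against 10.96, 10.79 and 10.80, a difference of -0.25 (SE 0.12). In 3 of these 42 genes the mimic values lay wholly below those of scramble, against 4.12% of all genes.

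Among 46 further mitosis genes tested the mimic mean was above in 24 and below in 22, their median difference was 0.014, and 0 had an unadjusted p under 0.05. Without the arrays numbered 1 there were 26 above and 20 below, with a median of 0.012. The smallest p belonged to Kif15, a spindle motor (0.56, SE 0.35), which was 0.14 without the arrays numbered 1, to Spc25, a subunit of the NDC80 complex of the kinetochore (0.31, SE 0.21), and to Cdca3 (-0.21, SE 0.15). Spc25 was higher in every numbered pair and its log2 difference stayed at 0.31 without the arrays numbered 1. None of the 3 passed the adjusted threshold in limma.

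Of 19 regulators of the G1 to S step 14 had a higher mean with the mimic, against 53.2% of all genes tested, and their median log2 difference was 0.15. Without the arrays numbered 1 the count was 11 of 19, against 55.0% of all genes, and the median 0.076. E2f8, a repressor of the E2F family that acts with E2f7 in the giant cell cycle of mouse trophoblast, read 10.26, 10.60 and 10.72 with scramble and 10.88, 10.86 and 11.05 with the mimic. Its groups did not overlap, and the difference was 0.40 (SE 0.15, limma unadjusted p = 0.0288, adjusted p = 0.972). Rb1, the retinoblastoma gene that restrains E2F, had 0.52 (SE 0.29) by the brightest of its 10 features, whose mean was 7.99. The other features of Rb1 are not given here. Tfdp1, the dimer partner of E2F factors, had 0.41 (SE 0.23). Without the arrays numbered 1 these 3 differences were 0.30, 0.39 and 0.27. The list's only gene under an unadjusted p of 0.05 was E2f8, 1 of 19 against 3.17% of all genes, and the mimic values lay wholly above those of scramble in 2 of 19, against 5.58% of all genes.

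Of 8 CDK inhibitor genes 4 had a higher and 4 a lower mean with the mimic, with a median of -0.044, and Cdkn2b (-0.37, SE 0.27), Cdkn3 (-0.43, SE 0.33) and Cdkn2d (0.25, SE 0.21) had the smallest p. Without the arrays numbered 1 these 3 differences were -0.13, -0.21 and 0.13, and the list had 5 higher and 3 lower with a median of 0.071. Leaving out mimic replicate 1 alone gave -0.18 for Cdkn2b and -0.15 for Cdkn3. Of 12 checkpoint genes 7 were higher, with a median of 0.079, and without the arrays numbered 1 these were 8 of 12 and 0.093. Fzr1, which activates the anaphase ligase in G1 and in endocycles, had 0.29 (SE 0.16), Mdc1, a DNA damage adaptor, -0.52 (SE 0.31), and Rad17, a clamp loader of the damage response, 0.29 (SE 0.18). Without the arrays numbered 1 the differences of Fzr1, Mdc1 and Rad17 were 0.19, -0.29 and 0.12. A list of placental trophoblast genes held Prl3d2, Hand1, Plac1, Ctsq and Ascl2, not all of them particular to giant cells. All 5 had a higher mean with the mimic, against 53.2% of all genes tested. Their median log2 difference was 0.76, with Prl3d2 at 2.06 (SE 0.34), Hand1 at 1.07 (SE 0.41) and Ascl2 at 0.081 (SE 0.18). Without the arrays numbered 1 all 5 were still higher, with a median of 0.56, and Ctsq went from 0.76 to 0.34. With scramble Hand1 read 7.07, 7.84 and 7.16, near the filter level of 7.16. The list was chosen with earlier results of these data known, so its count is no independent support. In the trophectoderm list the mimic mean was below that of scramble in 6 of 8 genes, against 46.8% of all genes tested, and above it in 2. The median difference was -0.11. Of the lower genes Cdx2 had -0.62 (SE 0.28), while Krt18 had -0.049 and Gata3 -0.09. The 2 higher genes were Elf5 at 0.53 (SE 0.24) and Tfap2c at 0.43 (SE 0.18). Tfap2c was the list's only gene under an unadjusted p of 0.05 in limma, 1 of 8 against 3.17% of all genes. None of these markers passed the adjusted threshold, and their part in the values of the cell cycle genes was not tested.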

How the data were processed

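The deposited table holds the authors' log2 signal for 45220 features on 6 arrays, 1 per sample; 1-colour Cy3 labelling is per the labels, and the steps from scanner signal to these values were not given in the sources used here. The array medians of 7.366 to 7.376 show a common scale, so a change shared by most genes or in total RNA cannot be seen. No detection flags were used, and the number of arrays limits the precision. Features were named from the platform annotation (33026 with 1 symbol, 0 with several, 12194 with none) and updated by Entrez identifier through RefSeq GRCm38.p6 (98.2%). The members, lists and promoter elements were chosen with earlier results of these data known. Features in the lowest 25% of the named ones by mean were left out, and the brightest feature per gene was kept (17399 genes).

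The groups were tested with limma 3.58.1 under R 4.3.3 (eBayes with a trend, two-sided, Benjamini-Hochberg over all genes, threshold 0.05). The fit was also run on simulated data with independent noise of equal spread on every array. That run does not cover effects shared by same-numbered arrays or noisier arrays. All members are named, and of each further list the 3 genes with the smallest unadjusted p. Titles give the groups and call the samples biological replicates. No source says that the cultures came from separate matings, so the p-values cover only the spread among these arrays, which may be technical. Same-numbered arrays deviated together (r = 0.336, 0.352 and 0.209), so by the rule of 0.1 the numbers were taken to pair the samples. The main test has no term for these pairs, so its p-values, standard errors and intervals are unpaired. Of the fits only the replicate block uses the pairs. The pairing is read from the data. Scramble replicate 2 with mimic replicate 3 also reached 0.196, close to the 0.209 of the arrays numbered 3. Scramble replicate 3 with mimic replicate 2 reached 0.129. Alternatives were no filter or a filter at 50%, the mean of features, median centring, quantile normalization, no trend, the replicate block, leaving out each array, and leaving out both arrays numbered 1. Figures used matplotlib 3.10.9.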

Additional observations from a re-analysis of the deposited data

How the results depend on the processing

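Over the 14 alternatives 0 of the 33 members passed an adjusted p of 0.05. Over all genes 0 passed in each alternative except with the replicate block, where 1 did, and that gene is no member. The number of genes with an unadjusted p under 0.05 was 552 as reported, 1260 with the replicate block, 919 without scramble replicate 2, 362 without mimic replicate 2 and 1000 without both arrays numbered 1. The replicate block changed no call of a member. With each array left out in turn the mitosis median ranged from -0.073 to 0.042, the replication median from -0.17 to 0.05 and the replication minus mitosis median from -0.11 to 0.063, so the sign of none of these medians is settled. Of 459 recomputed member values 4 moved by more than the spread between replicates (pooled SD). They were Bub1 with the mean of its features (0.21), and Cdk1, Cenpf and Cdc6 without both arrays numbered 1 (-0.15, -0.15 and -0.24). Many of the 459 could not have moved that far, so the count says little about stability. The filters, the trend and the replicate block leave a member's estimate unchanged. Leaving out a single array cannot shift the difference by a whole pooled SD. The dim features of Aurkb, Cenpf and Tyms limit what can be read from these genes.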
